A study of Populus tremula x Populus alba with 10 samples.

Results

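Nuclear RNA and total RNA were compared in well-watered stems of hybrid poplar, using 5 of the 10 libraries of the study, chosen by the rule that they are labelled as well watered. Single-nucleus RNA sequencing gave 2 of them, nuclei libraries 1 and 2, and bulk RNA sequencing gave the other 3, bulk libraries 1, 2 and 3. The 5 drought libraries were not used. The comparison covers the 31823 gene IDs present in both kinds of file.

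All 5 libraries came from wild-type plants of Populus tremula x alba, INRA clone 717 1B4, a single clone. The plants had been potted in peat for 6 weeks and then kept for 14 days at a soil moisture of about 0.46 cubic metres of water per cubic metre, near field capacity. Each nuclei library came from 1 plant. Its stem tissue, internode 15 according to the extraction protocol and internodes 14 and 15 according to the design text, was chopped. Of the stained nuclei, 80000 were sorted by fluorescence, and 10000 were targeted on a Singleron GEXSCOPE chip, which tags each nucleus with a barcode and each captured molecule with a unique molecular identifier (UMI). The bulk libraries were made from total stem RNA with the TruSeq Stranded mRNA kit. The sources call them biological replicates, and no label links a bulk library to a plant used for nuclei.

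A transcript is made and processed in the nucleus and is then exported to the cytoplasm, where most finished messenger RNA is translated and eventually degraded. Nuclear RNA therefore leans towards transcripts that are being made, are not yet spliced or are held back. Total RNA also holds transcripts that have accumulated outside the nucleus. The bulk libraries, called total RNA here, were made with an mRNA kit and need not cover every transcript. Nuclei are often used for woody tissue because thick cell walls make it hard to release whole cells. The 2 assays also differ in stem position, plants, library chemistry and counting. One counts molecules and the other counts reads, whose number grows with transcript length, and no transcript lengths were at hand. These differences cannot be told apart from that between nuclear and total RNA. Below, "over-represented in nuclei" means only a higher share of the counts in the nuclei libraries after scaling between libraries.

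Gene UMIs numbered 4346198 and 3633900 in the nuclei libraries, over 4439 and 5698 barcodes, with medians of 732 and 513 UMIs per barcode. Bulk gene counts ranged from 48103219 to 57594846. The nuclei libraries shared 30 barcode sequences, or 0.676% and 0.527% of their barcodes. Gene IDs come without gene names in these files, so stem cell type markers could not be checked and gene families could not be described. In the bulk libraries, fewer cells of a type and less RNA per cell cannot be told apart. Genes are described by their level and their ratio, and 4 of them are given by ID.

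The gene profiles of the 2 assays were far less alike than those of libraries of the same assay. Across the 20314 genes with at least 10 counts in each library, the Spearman correlation of counts per 1000000 gene counts (CPM) was 0.964 between the nuclei libraries and 0.990 to 0.994 between the bulk libraries. Between a nuclei and a bulk library it was 0.621 to 0.657. Across all 31823 shared genes, which span a wider range of levels, it was 0.844 to 0.855 between assays. In that set it was 0.979 between the nuclei libraries and 0.993 to 0.994 between the bulk libraries. These correlations describe genes, which are not independent replicates.

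**Figure D1:**
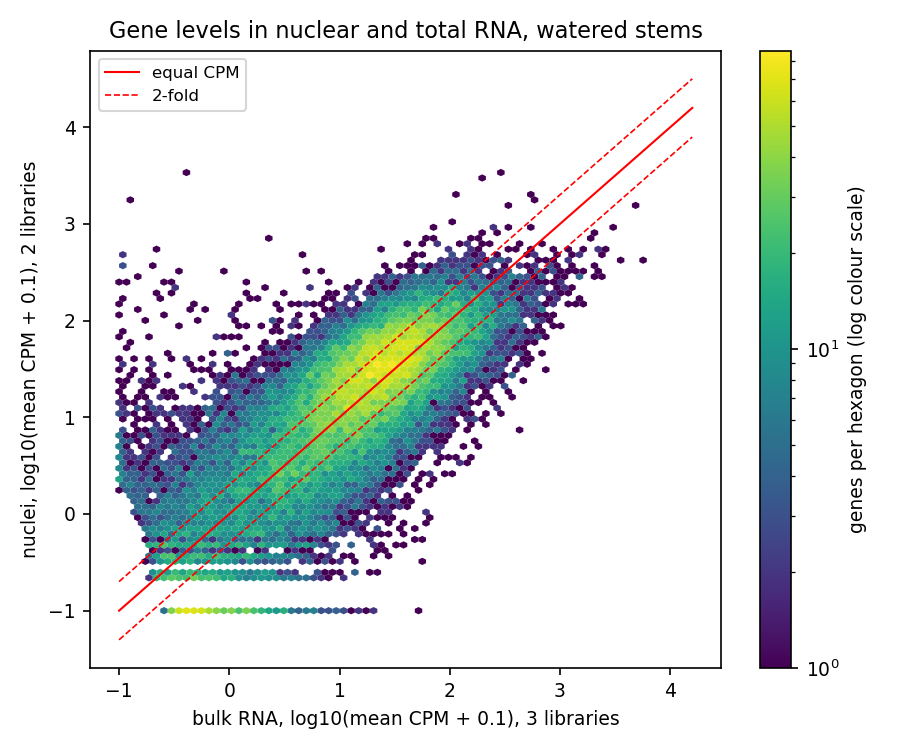
Mean CPM of each tested gene in the 3 bulk libraries (x axis) and the 2 nuclei libraries (y axis), on log10 scales with 0.1 CPM added; colour gives the number of genes per hexagon, and the dashed lines mark 2-fold. The cloud is wide around the line of equal CPM, with 9600 of 26967 genes called beyond 2-fold, and the genes at the right edge lie below it.

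Most genes had a different level in nuclear and in total RNA after scaling between libraries. Of the 26967 genes that passed the filter on low counts, 18804 differed, which is 69.7% (edgeR quasi-likelihood F test, Benjamini-Hochberg false discovery rate (FDR) below 0.05, 2 against 3 libraries). Of the tested genes, 8905 (33.0%) were higher in nuclei and 9899 (36.7%) were lower. Without scaling beyond library size, which compares plain shares of the counts, 10508 were higher and 8152 lower. With scaling, a gene with nearly equal plain shares can be called lower. Because so many genes differed, the description below uses a stricter call, a test against a 2-fold limit in the same fit (edgeR glmTreat, FDR below 0.05). It was passed by 9600 genes (35.6%), of which 4441 (16.5% of those tested) were over-represented in nuclei and 5159 (19.1%) were under-represented. The libraries within an assay were few, and each gene had 1 estimate of spread for both assays.

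The balance between the directions depended on the scaling and on the tool. With TMM scaling, which trims the genes with extreme levels and ratios before scaling, 46.3% of the genes called beyond 2-fold were higher in nuclei. Without scaling beyond library size it was 58.7% (5725 higher and 4031 lower), and the median log2 ratio of all tested genes moved from -0.13 to 0.14. With the 2-fold limit, DESeq2 called 3920 genes higher and 3565 lower (52.4% higher), and limma voom called 3701 and 3329 (52.6% higher), so the larger side turned with these tools too. Of the 9600 genes, 8472 (88.2%) were called beyond 2-fold under both scalings. The ratios below are relative to TMM scaling unless stated otherwise.

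The over-represented genes made up a much larger part of nuclear than of total RNA. They took 30.8% and 29.5% of the gene UMIs in the nuclei libraries and 6.29%, 6.05% and 5.92% of the counts in the bulk libraries. The under-represented genes took 11.7% and 12.5% of the UMIs but 43.5%, 44.2% and 45.0% of the bulk counts. These shares restate the values that chose the lists and carry no test. The remaining 17367 tested genes took 57.5% and 57.9% of the UMIs and 49.1% to 50.1% of the bulk counts.

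The median log2 ratio of nuclei to bulk was 2.06 in the over-represented list and -2.23 in the under-represented list, or -2.16 when the 258 genes with 0 UMIs in both nuclei libraries were set to a floor of 3 UMIs over both. In the first list 87 genes had 0 counts in all bulk libraries. Setting them to a floor of 3 counts over the bulk libraries left its median at 2.06. Differences between replicates are given for scale only, since the lists were chosen by a test against that spread. Over genes with at least 10 UMIs in each nuclei library, the median absolute log2 difference between nuclei libraries 1 and 2 was 0.23 in the over-represented and 0.29 in the under-represented list. Between bulk libraries 1 and 2 it was 0.17 in both, over genes with at least 10 counts in each bulk library.

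Large ratios were common in both directions. With groups at 0 set to those floors, ratios of 4 or more were reached by 2350 over-represented and 2974 under-represented genes, and ratios of 8 or more by 997 and 1209. At 16 or more the numbers were 535 and 389, and at 32 or more they were 337 and 116. Among the 9991 genes with at least 100 counts in each of the 5 libraries, where counting error is small, the 5% and 95% points of the log2 ratio were -1.82 and 2.41. In that set 2493 genes were called higher and 1133 lower beyond 2-fold. A floor on UMIs removes genes that are low in nuclei, so these 2 numbers do not give the balance among all genes.

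The ratios held between pairs that shared no library, though both pairs set the same 2 assays against each other. Differences of chemistry and counting between the assays therefore repeat as well. Ratios were formed from nuclei library 1 and 1 bulk library, and again from nuclei library 2 and another bulk library, with 0.5 CPM added to each level. The Spearman correlation of the 2 ratios across the 26967 tested genes was 0.901 to 0.913 over the 6 ways to choose the bulk libraries. For nuclei library 1 against bulk library 1, 2067 genes were at least 4-fold higher. In nuclei library 2 against bulk library 2, 99.2% of these were also higher, 96.6% at least 2-fold and 73.0% at least 4-fold. Of the 2635 genes at least 4-fold lower in the first pair, 99.8% were also lower in the second, 96.1% at least 2-fold and 70.6% at least 4-fold.

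**Figure D2:**
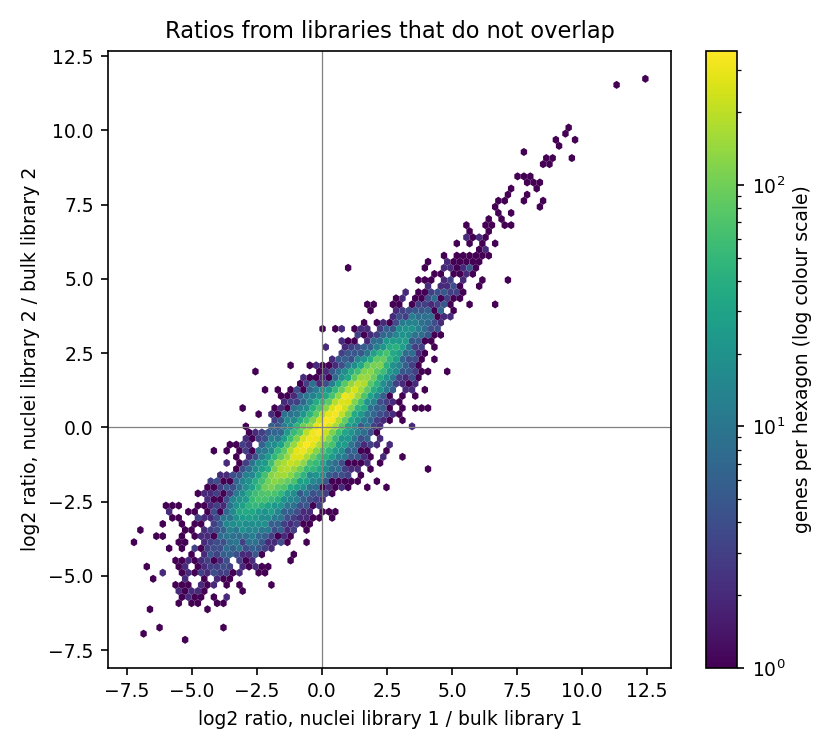
Log2 ratio of nuclei to bulk (TMM-scaled CPM with 0.5 added) of each tested gene in nuclei library 1 over bulk library 1 (x axis) and in nuclei library 2 over bulk library 2 (y axis); colour gives the number of genes per hexagon. The genes lie along the diagonal, with a Spearman correlation of 0.906.

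Nuclear RNA was spread more evenly over genes than total RNA. The 10 most abundant genes of a library took 2.27% and 2.03% of the gene counts in nuclei and 3.12%, 3.18% and 3.23% in bulk. The 100 most abundant took 7.42% and 6.83% in nuclei and 12%, 12% and 12.4% in bulk, and the 1000 most abundant took 27.8% and 26.8% against 36.6%, 36.9% and 37.4%. In every one of these measures both nuclei libraries lay below all bulk libraries.

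Counted the other way, 50% of the counts were reached with 2964 and 3050 genes in nuclei, but with 2065, 2031 and 1984 genes in bulk. The mean share of the top 100 genes was 7.125% ± 0.417 (SD, n = 2) in nuclei and 12.13% ± 0.231 (SD, n = 3) in bulk, a difference of -5.01 percentage points. For each of these measures p was 0.2 in an exact permutation test, taken as 2 times the smaller one-sided p, which is the smallest value this form allows for 2 against 3 libraries, so none could pass 0.05. With all libraries thinned to 3633900 counts, the difference was -5.0 percentage points.

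**Figure D3:**
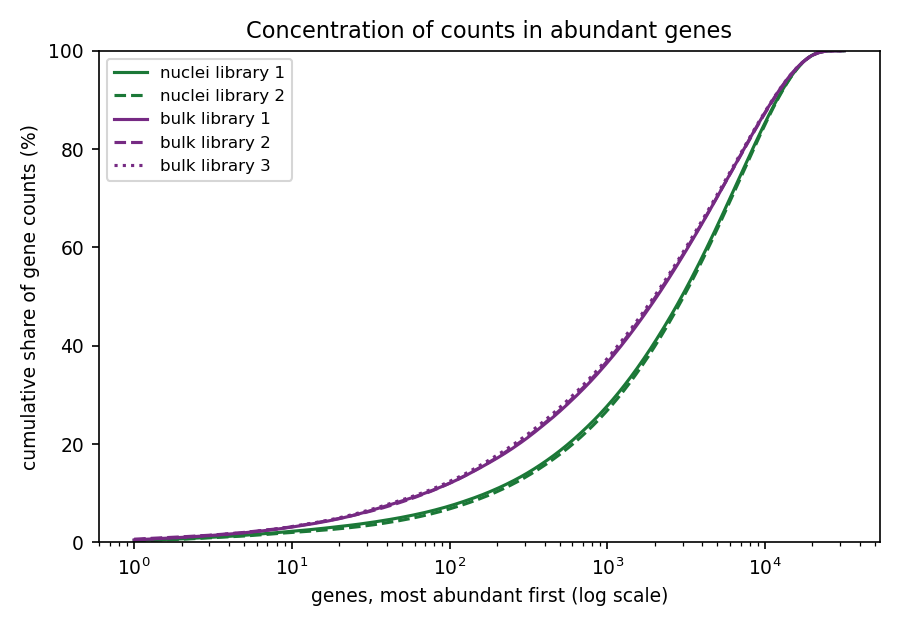
Cumulative share of gene counts (y axis, %) against the number of genes, most abundant first (x axis, log scale), for each of the 5 watered libraries. Both nuclei curves lie below the 3 bulk curves, with 26.8% and 27.8% of the counts in the top 1000 genes against 36.6% to 37.4%.

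The most abundant genes were largely different ones. The 10 most abundant genes of a nuclei library and of a bulk library had 1 gene in common in each of the 6 pairings, while the nuclei libraries shared 9 and the bulk libraries 7 to 9. Of the 100 most abundant, a nuclei and a bulk library shared 19 to 27, against 78 between the nuclei libraries and 84 to 92 between bulk libraries. Of the 1000 most abundant they shared 307 to 363, against 846 and 899 to 936.

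The genes that dominated total RNA were nearly all under-represented in nuclei. Among all tested genes, 19.1% were called lower and 16.5% higher beyond 2-fold. Of the 100 genes with the highest mean bulk CPM, 93 were called lower beyond 2-fold and 0 were called higher. Their median log2 ratio was -2.38. They took 12% to 12.4% of the bulk counts but 2.89% to 3.04% of the UMIs, and 75 of them ranked among the 1000 most abundant genes of nuclei. The converse was less uniform. Of the 100 genes with the highest mean nuclei CPM, 51 were called higher and 18 lower beyond 2-fold, the latter near the share of all tested genes. The median log2 ratio of these 100 genes was 1.27. They took 6.76% to 7.35% of the UMIs and 5.9% to 6.06% of the bulk counts. These lists were picked by level in 1 of the assays, which by itself moves their ratios towards that assay.

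To keep the counting error of the grouping library out of the ratio, genes were grouped by their CPM in bulk library 3. The ratio was taken from the nuclei libraries and bulk libraries 1 and 2. Between 0.3 and 30 CPM the median log2 ratio stayed between -0.03 and 0.13. It was -0.38 for the 5987 genes at 30 to 100 CPM and -1.11 for the 1671 genes at 100 to 300 CPM. For the 337 genes at 300 to 1000 CPM it was -1.95, and 83.4% of them were at least 2-fold lower in nuclei. All 41 genes at 1000 CPM or more were at least 2-fold lower, with a median of -2.4. Any trait shared by all libraries of an assay still enters the ratio, so grouping by level in 1 assay still moves ratios towards that assay. Longer transcripts give more reads. Whether they also gave more UMIs could not be checked without transcript lengths, and the part of length in these ratios was not tested.

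Within each level the genes still varied widely. At 10 to 30 CPM, where the median was 0.10, 23.3% of the 7334 genes were at least 2-fold higher in nuclei and 21.9% at least 2-fold lower. At 3 to 10 CPM these shares were 28.2% and 24.7% of 5330 genes. Grouped instead by nuclei library 2, with the ratio taken from nuclei library 1 and all bulk libraries, the median was -0.77 at 0.1 to 0.3 CPM, -0.08 at 10 to 30 CPM (6503 genes), 0.31 at 30 to 100 CPM, 0.62 at 100 to 300 CPM and 1.13 at 300 to 1000 CPM (210 genes). There 53.8% of the genes were at least 2-fold higher in nuclei and 21.4% at least 2-fold lower.

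**Figure D4:**
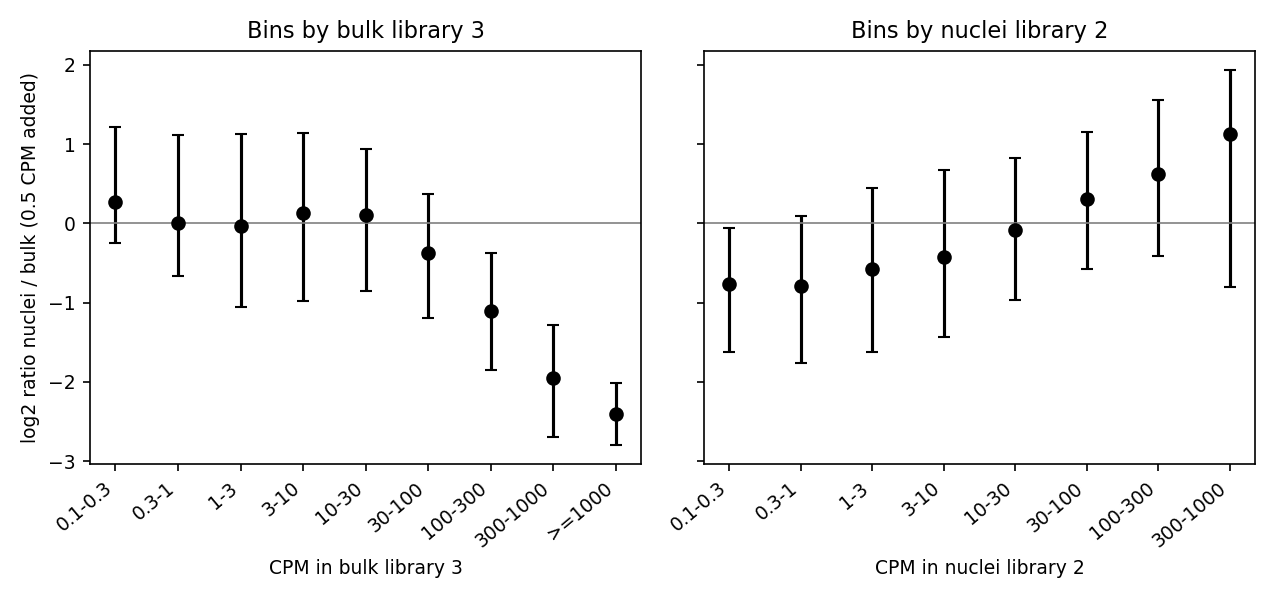
Median (points) and quartiles (bars) of the log2 ratio of nuclei to bulk over genes, by CPM class; the left panel sets the classes by bulk library 3 and the right panel by nuclei library 2, and the library that sets them is not in the ratio. The median falls to -2.4 in the top bulk class and reaches 1.13 in the highest nuclei class shown.

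Similar numbers of genes were detected in both assays. A nuclei library held at least 1 UMI of 26660 and 26409 genes, and the bulk libraries at least 1 count of 27700 to 28196. After thinning to equal depth these were 26422 and 26409 genes in nuclei and 26073 to 26242 in bulk. At that depth 23658 genes were seen in all 5 libraries, 623 in both nuclei libraries but in no bulk library, and 435 in all bulk libraries but in neither nuclei library.

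Transcripts of total RNA that were missing from nuclei were mostly rare ones. Of 2021 genes with a mean bulk level above 0 and under 0.1 CPM, 57.1% had 0 UMIs in both nuclei libraries, and of 3470 genes at 0.1 to 1 CPM 22.4% did. At 1 to 10 CPM it was 183 of 8057 genes (2.27%), at 10 to 100 CPM 11 of 13428 (0.0819%), and at 100 CPM or more 0 of 2054. A count of 0 in 7980098 UMIs allows a level of up to 0.376 CPM over both libraries. For the rarest class, depth therefore cannot show whether the transcript was absent.

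The 4 genes given by ID were chosen by rules on counts and ratio, so their values describe them and carry no weight beyond that. PtXaAlbH.18G083500 had the largest ratio among genes with at least 100 counts in each library. It had 3022 and 2463 UMIs, or 695 and 678 CPM, in the nuclei libraries. In bulk it had 116, 108 and 110 counts, or 2.41, 2.19 and 1.91 CPM. It thus ranked number 22 in nuclei and number 21735 in bulk, and the groups were far apart. Its log2 ratio was 8.04 (SE 0.15, adjusted p 2.22e-08 for the 2-fold limit with edgeR), or 263-fold. A UMI of it was found in 37.5% and 28.9% of barcodes, with at most 14 and 12 UMIs in 1 barcode. No barcode class known to lack a gene was at hand, so the share of barcodes with a UMI from free RNA was not measured for any gene.

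PtXaAlbH.01G347700 had the highest nuclei level among genes called higher beyond 2-fold with a ratio of at least 4. It was the most abundant gene of nuclei. It had 16871 and 10623 UMIs, or 3880 and 2920 CPM, against 14436, 14163 and 14857 bulk counts, or 300, 288 and 258 CPM. Both nuclei libraries lay far above the bulk libraries, where the gene ranked number 407. Its log2 ratio was 3.33 (SE 0.16, adjusted p 3.27e-06 for the 2-fold limit with edgeR). It was found in 78.9% and 64.7% of barcodes.

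PtXaAlbH.15G102200 had the lowest ratio among genes with at least 100 counts in each library. It had 201 and 152 UMIs, or 46.2 and 41.8 CPM, against 35949, 33033 and 42954 bulk counts, or 747, 671 and 746 CPM. The gene ranked number 78 in bulk and number 6981 in nuclei. Its log2 ratio was -4.30 (SE 0.15, adjusted p 6.6e-07 for the 2-fold limit with edgeR). In nuclei it was seen in 4.05% and 2.37% of barcodes, with at most 3 UMIs in any of them.

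PtXaAlbH.01G281000 had the highest bulk level of the genes with 0 UMIs in both nuclei libraries. Its bulk counts were 2495, 2787 and 2665, or 51.9, 56.6 and 46.3 CPM. Set against a floor of 3 UMIs over both nuclei libraries, its pooled bulk level was at least 136-fold higher. It was called beyond the 2-fold limit (adjusted p 2.12e-06 with edgeR). The sources used here do not say how reads of near-identical, overlapping or antisense genes were assigned in either assay, so ratios this large are uncertain for genes of those kinds.

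**Figure D5:**
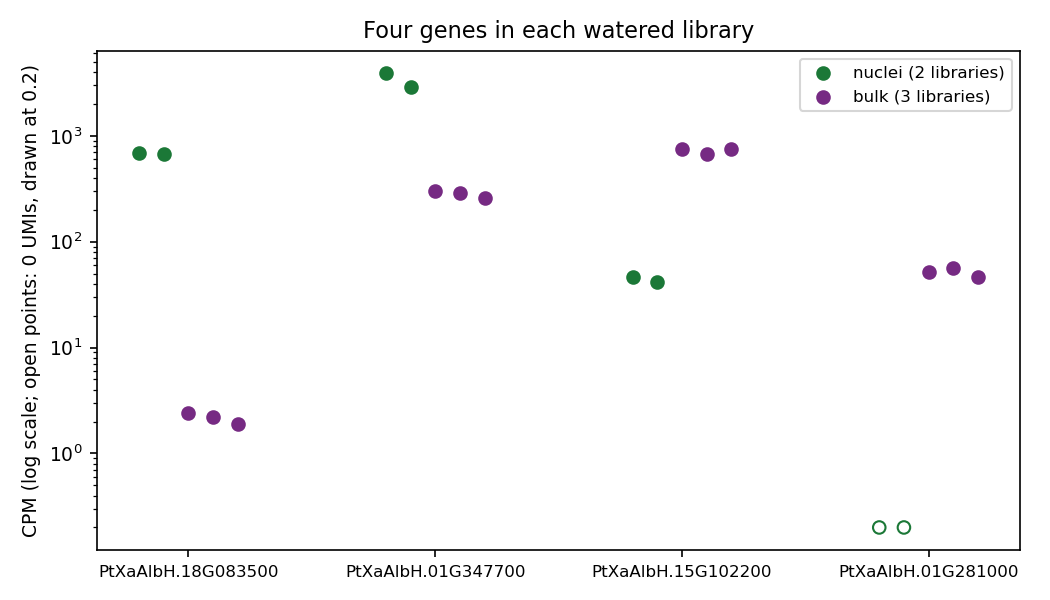
CPM (y axis, log scale) of 4 genes in each of the 2 nuclei and 3 bulk libraries; 1 point is 1 library, and open points are libraries with 0 UMIs, drawn at 0.2 CPM. The first pair of genes is higher in both nuclei libraries, up to 3880 CPM against 300 CPM, and the second pair is lower, down to 0 UMIs against 46.3 to 56.6 CPM.

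A small group of genes had UMIs in both nuclei libraries and few or no bulk counts. The sources do not say how reads of near-identical, overlapping or antisense genes were assigned. A bulk count of 0 therefore need not mean absence from total RNA. The part of the mRNA kit used for the bulk libraries was not tested either. There were 59 genes with at least 10 UMIs in each nuclei library and 0 counts in all bulk libraries, out of 154938366 bulk counts. Together they took 0.289% and 0.345% of the UMIs. The one with most UMIs had 1629 and 2119, or 375 and 583 CPM, with a UMI in 26.8% and 28.2% of barcodes. Against a floor of 3 counts over the bulk libraries, its pooled level was at least 24300-fold higher in nuclei, and the median bound over the 59 genes was at least 349-fold. After the bulk libraries were thinned to the total of the shallower nuclei library, 130 genes met the same rule.

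The 337 genes at least 32-fold higher in nuclei took 1.96% and 2.24% of the UMIs and 0.0100% to 0.0108% of the bulk counts. The largest had 26133 UMIs over both nuclei libraries, close to the 27494 of the most abundant gene. Many of the 337 had neighbouring ID numbers. Within 10 steps of ID number, 46.9% of them had another gene of the list, whereas 14.3% of all tested genes had one of the list that near. For the 116 genes at least 32-fold lower these shares were 24.1% and 6.44%. ID numbers were taken only as numbers, and no annotation was used to place the genes. Over all tested genes, the Spearman correlation of log2 ratios between genes 1 ID step apart was 0.096 (23369 pairs), and it was -0.013 at 50 steps.

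The number before the letter G in an ID, of which there are 19, divided the genes more evenly, with an exception. Between 14.3% and 19.6% of the tested genes of the other 18 ID series were called higher beyond 2-fold, against 24.7% of the 885 genes of series 19 (219 genes). Lower calls made up 15.8% of series 19 and 16.7% to 21.9% of the others. The median log2 ratio was 0.10 in series 19 and -0.29 to -0.01 in the others. This is a description with no test, and series 19 was singled out after its values were seen.

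The spread of UMIs over barcodes was described in classes of like UMI count, without a measure of free RNA, so it does not show which nuclei held a transcript. Among genes with 300 to 1000 UMIs in nuclei library 1, the 1% of barcodes richest in a gene held a median of 24.7% of its UMIs for 1131 over-represented genes, 24.7% for 342 under-represented genes and 25.1% for the 2208 others. In nuclei library 2 the medians were 25.6%, 25.7% and 25.8%. The median share of barcodes with a UMI was 8.29%, 7.88% and 7.82% in nuclei library 1, with median totals of 461, 430.5 and 426 UMIs, and 6.72%, 6.69% and 6.42% in nuclei library 2. Among genes with 1000 to 3000 UMIs the richest 1% of barcodes held medians of 15.5%, 18.2% and 16.5% in nuclei library 1 and 15.0%, 17.5% and 15.3% in nuclei library 2, highest for the under-represented genes (47 and 41 genes). Among genes with 30 to 100 UMIs in nuclei library 1 they were 87.7%, 94.1% and 87.5%, with median totals of 60, 54.5 and 59 UMIs. In nuclei library 2 each of these medians was 100%. With so few UMIs the share largely follows the total, so this class cannot compare the lists. Barcodes are not replicates, and no test was made.

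Shallow and deep barcodes were compared by the median ratio of each list. Barcodes of each library were divided by their UMIs into 3 parts of equal number, with median depths of 450, 732 and 1384 UMIs in nuclei library 1 and 316, 513 and 878 in nuclei library 2. The over-represented list had a median log2 ratio of 1.90, 1.90 and 1.92 in the first library and 1.83, 1.84 and 1.86 in the second, from shallow to deep. The other tested genes had -0.11, -0.11 and -0.14, and -0.17, -0.13 and -0.14. The under-represented list had -1.99, -2.02 and -2.14, and -2.05, -2.02 and -2.05. Its share of UMIs was slightly higher in shallow barcodes, at 12.4% against 11.4% in deep ones in nuclei library 1 and 13.0% against 12.3% in nuclei library 2.

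The 116 genes at least 32-fold lower took 0.0153% of UMIs in the shallow and 0.00728% in the deep part of nuclei library 1. In nuclei library 2 they took 0.0152% and 0.00875%. Their median was 3 UMIs per gene over both libraries. They were chosen by summed UMIs, most of which came from deep barcodes, and this by itself favours a low share there. The ribosomal RNA features of the nuclei matrices also took a larger share of shallow barcodes. All 25 ribosomal and transfer RNA features together took 0.461% of UMIs in shallow and 0.35% in deep barcodes of nuclei library 1, and 0.571% and 0.425% in nuclei library 2. Their part in the ratios was not tested. The 337 genes at least 32-fold higher took 1.98% and 1.94% in nuclei library 1 and 2.40% and 2.16% in nuclei library 2. PtXaAlbH.18G083500, though far over-represented, was also higher in shallow barcodes, at 878 CPM against 573 CPM in deep ones of nuclei library 1, and 824 CPM against 563 CPM in nuclei library 2. PtXaAlbH.01G347700 had 4250 CPM in shallow and 3510 CPM in deep barcodes of nuclei library 1, and 3390 and 2600 CPM in nuclei library 2.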

How the data were processed

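The authors deposited raw counts: reads per gene in a bulk table, and UMIs per feature in each barcode of the nuclei matrices, as the headers and whole-number values show. The submitters' processing notes name HISAT2 without a role; for the counting software, genome build, barcode selection, use of introns and use of strand the sources used here say nothing. For each nuclei library, UMIs of all its barcodes were added up. The 25 ribosomal and transfer RNA features (0.391% and 0.478% of UMIs) stayed out of library sizes and tests. Doublets were not removed, since nuclei were only summed.

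Counts were tested with edgeR 4.0.16 in R 4.3.3 (filterByExpr by assay, TMM scaling, quasi-likelihood F test, glmTreat at a log2 limit of 1, Benjamini-Hochberg adjustment); the scripts were tested on simulated data. A standard error is the log2 ratio divided by the square root of F. CPM are relative to gene counts, without TMM except in ratios by CPM class, by separate libraries and by barcode depth, which add 0.5 CPM. DESeq2 1.42.0 and limma 3.58.1 were alternatives. A chi-square of counts per degree of freedom was 5.43 between the nuclei libraries and 14.4 to 28.8 between bulk libraries, so each was 1 replicate. Floors cover counting error only. The libraries and rules were chosen with earlier results of these data known. Genes given by ID were: the highest and the lowest ratio with at least 100 counts in each library, the highest nuclei level among ratios of at least 4, and the highest bulk level with 0 UMIs. The grouping by nuclei library, the ratios of separate libraries, the 32-fold lists and the ID numbers were added after seeing the data.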

Additional observations from a re-analysis of the deposited data

Results flagged for a closer look

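Outside the gene comparison, the nuclei matrices held UMIs in features named as ribosomal or transfer RNA, which the bulk table does not list, so no total RNA value stands beside them. They took 0.391% of all UMIs in nuclei library 1 (Wilson 95% interval 0.385% to 0.397%, 17045 UMIs) and 0.478% in nuclei library 2 (0.471% to 0.485%, 17440 UMIs), well above the limit of 3 UMIs that a count of 0 allows. Nearly all came from the features rrnS (10093 and 11799 UMIs) and rrnL (6951 and 5641 UMIs), and 1 UMI came from rrn5. At least 1 such UMI was present in 90% and 87.0% of barcodes. The intervals cover counting error within a library and not the spread between libraries.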

How the results depend on the processing

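The test at FDR 0.05 called 15748 to 19008 genes and the 2-fold test 7030 to 9756 under every alternative except a filter of at least 50 counts in every library, which called 11299 and 4785 of the 14192 genes it left to test. Leaving out each library in turn gave 17074 to 18012 and 8378 to 9277 calls. With barcodes thinned to 200 UMIs 15748 and 7545 genes were called, with DESeq2 18764 and 7485, and with limma voom 17522 and 7030. With the replicate number as a block 16801 and 8442 genes were called, 8384 of the latter among the 9600. The labels tie no nuclei library to a bulk library of the same number. Deviations from the group means had Pearson correlations of 0.072 (number 1) and 0.023 (number 2) across genes. Between unlike numbers they ran from -0.072 to 0.059. With 2 nuclei libraries the deviation of one mirrors that of the other, so these values cannot show whether the libraries were paired. The 4 genes given by ID stayed past the 2-fold limit in each alternative that tested them, with adjusted p of 0.000115 or lower (edgeR, DESeq2 and limma).

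Without scaling beyond library size the median log2 ratio went from 0.10 to 0.36 at 10 to 30 CPM and from -1.95 to -1.69 at 300 to 1000 CPM. Grouping by bulk library 1 gave -1.86 in the latter class. Leaving out each nuclei library gave 0.09 to 0.10 and -1.97 to -1.89. The concentration of over-represented against other genes in the richest 1% of barcodes differed by -0.3 percentage points, and by -0.9 with barcodes thinned to 200 UMIs, as means over both nuclei libraries. The thinned medians were 20.3% against 21.9% in nuclei library 1 and 22.4% against 22.6% in nuclei library 2, so the larger value rests on the first. There the median totals were unlike, at 405 UMIs for 63 over-represented genes and 352 UMIs for 49 others. In nuclei library 2 they were 374 and 380 UMIs (132 and 117 genes). From shallow to deep barcodes the median log2 ratio changed by 0.025 (over-represented) and -0.075 (under-represented), and by 0.01 and -0.24 with parts of equal summed UMIs, again as means. For the under-represented list these rest mostly on nuclei library 1, which went from -1.99 to -2.14 and from -1.94 to -2.28. Nuclei library 2 had -2.05 at both ends and went from -1.99 to -2.13. The other tested genes fell too with parts of equal summed UMIs. Their median went from -0.06 to -0.22 in nuclei library 1 and from -0.12 to -0.21 in nuclei library 2. The cause of these shifts was not tested. Depth limits the rarest genes most, since 0 UMIs allow up to 0.376 CPM.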
